A study of Homo sapiens with 6 samples.

Results

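The nuclear genes of the respiratory chain and ATP synthase were followed in A549 cells, an established human lung adenocarcinoma line, after a short pulse of cisplatin. Members were the probe sets with a single gene symbol that starts with NDUF, UQCR, SDHA to SDHD, COX4 to COX8 or ATP5, or is CYC1, with the assembly factors NDUFAF and SDHAF left out. This gave 62 genes, each with 1 probe set, out of 7713 genes with a single-symbol probe set on the array. They comprised 26 genes of complex I, 2 of complex II, 7 of complex III, 13 of complex IV and 14 of ATP synthase (complex V). All 62 were bright enough to be tested. A further 3 probe sets matched the prefixes but carry several symbols, and no values are given for them. Among subunits without a single-symbol probe set here were SDHA, SDHB, UQCRFS1, UQCRH and NDUFA4, which were not analysed.

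The inner mitochondrial membrane carries the respiratory chain. Complexes I and II pass electrons from NADH and succinate to ubiquinone, complex III passes them on to cytochrome c, and complex IV, cytochrome c oxidase, delivers them to oxygen. Complexes I, III and IV pump protons as they do so, and ATP synthase uses the returning protons to make ATP. Most subunits are encoded in the nucleus, as are all the members here, while a few core subunits are encoded by mitochondrial DNA.

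The study placed 3 control against 3 cisplatin arrays, from 3 independent experiments per the series description. Treated cultures were exposed for 1 hour to 50 µM cisplatin, which crosslinks DNA through its platinum atom, and were then washed into medium without it. RNA was taken 10 hours later, and controls differed only in that the drug was left out. The values are the authors' probe set intensities, which have no read depth, so the number of arrays limits the precision.

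As a sign that the treatment is visible in the data, CDKN1A, a cyclin-dependent kinase inhibitor gene, went from 257 ± 21.4 to 1422 ± 48.5 (mean ± SD, n = 3 each). The median intensity per array was 57.2 to 67.2, highest on cisplatin 2. RNA integrity was read from ACTB control probe sets, whose 3′/5′ intensity ratio ran from 2.20 (control 1) to 2.98 among controls and from 2.67 to 3.67 (cisplatin 1) among cisplatin arrays. Keratin genes KRT7, KRT8 and KRT18 had mean intensities of 2097, 2051 and 5702, whereas the epithelial adhesion genes CDH1 and EPCAM were dim, at 37.3 and 33.0. Of 8 measured markers of blood, endothelial and stromal cells, 4 were below the filter, and the other 4 summed to 236 to 274 on control and 228 to 275 on cisplatin arrays. Whether fewer cells or less RNA per cell lies behind a lower value cannot be told apart in such bulk RNA.

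No member passed the threshold after cisplatin. In limma with Benjamini-Hochberg adjustment over all tested probe sets, 0 of 62 members were called, and 0 had an unadjusted p under 0.05. Over all 6559 tested probe sets 19 were called, or 0.29%, with 14 higher (0.213%) and 5 lower (0.0762%), and 330 had an unadjusted p under 0.05, or 5.03%. The lowest adjusted p of a member was 0.982. Members' folds ran from 0.729, for COX7A1, to 1.23, for NDUFA7. Of the 62 members 0 differed by more than 1.5-fold, and of all 6559 tested probe sets 88 did, itself a small share.

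Gene by gene, and for the arrays as deposited without a covariate, the intervals put a limit on what could have been missed. They are not adjusted for the number of members. For 57 of 62 members, or 91.9%, the 95% interval of the fold from the limma fit lay inside 1.5-fold in either direction, against 66.5% of all tested probe sets. A limit of 1.25-fold, chosen after the values were seen, held for 40 members, or 64.5%, against 13.4%. The median standard error was 0.10 on the log2 scale for members and 0.17 for all tested probe sets, and the median SD between arrays of a group was 0.11 and 0.19. Bright members were measured most tightly: of the 46 with a mean intensity of 500 or more, 45 lay inside 1.5-fold, while of the 5 under 100 only 2 did. The median intensity of all probe sets on an array was only 57.2 to 67.2, and the fit ties variance to intensity. Shares at like intensity were not computed, so the closer intervals are not shown to be particular to these genes. The 5 members whose interval reached past 1.5-fold were NDUFA7, UQCRC1, COX6A2, COX7A1 and ATP5F1C.

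**Figure D1:**
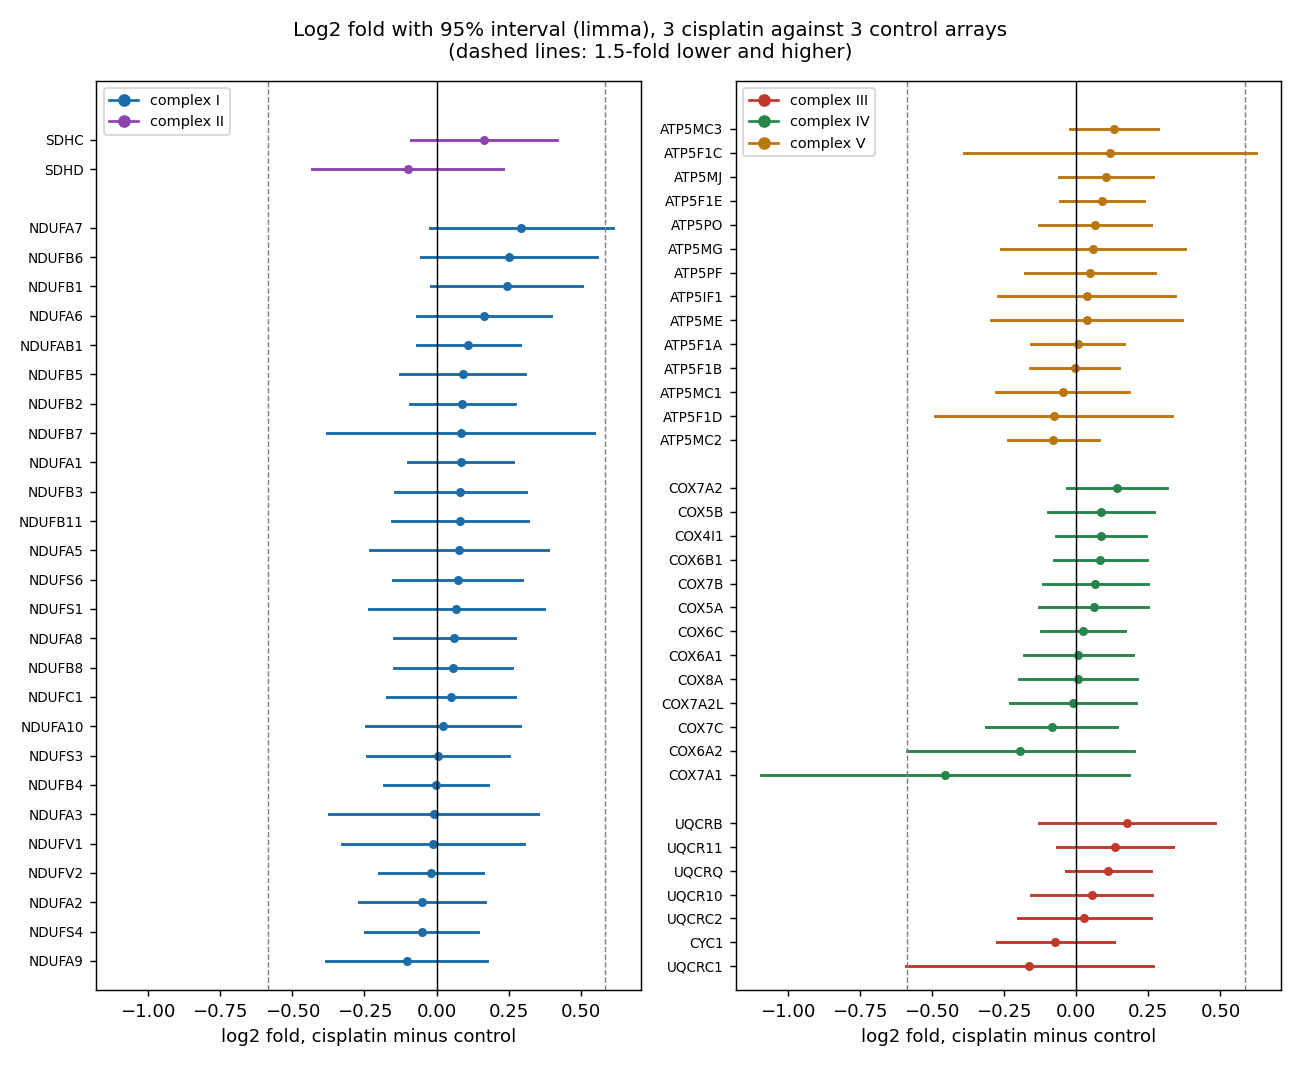
Log2 fold of each of the 62 members, cisplatin minus control, with its 95% interval from the limma fit, grouped by complex; dashed lines mark 1.5-fold lower and higher. All 62 intervals include 0, and 57 lie between the dashed lines; COX7A1 has the widest, from -1.09 to 0.18.

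The members' median log2 fold was 0.06, beside 0.04 over all tested probe sets. With arrays centred on their medians these values were -0.002 and -0.02, so the sign depends on the scaling. The gap between them varied as well. Quantile normalization gave 0.0472 and -0.0009, and leaving out control 1 and cisplatin 2 gave 0.0585 and 0.0035. Without control 2 alone they were 0.0545 and 0.0576. As deposited, 44 of 62 members (71.0%) had a log2 fold above 0, against 60.5% of all tested probe sets. All 3 cisplatin values lay above all 3 control values for 9 members, where 7.42% of all tested probe sets did so, and below them for 1, against 3.57%. The 9 were NDUFA7, NDUFB5, UQCR11, UQCRB, UQCRQ, COX5B, COX7A2, ATP5F1E and ATP5MC3, and the 1 was ATP5MC2. By complex, the median log2 fold was 0.07 for complex I, 0.03 for complex II, 0.05 for complex III, 0.02 for complex IV and 0.04 for complex V. With arrays centred on their medians that of complex I was 0.01, while those of complexes II to V turned to -0.03, -0.006, -0.03 and -0.02, with all tested probe sets at -0.02.

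**Figure D2:**
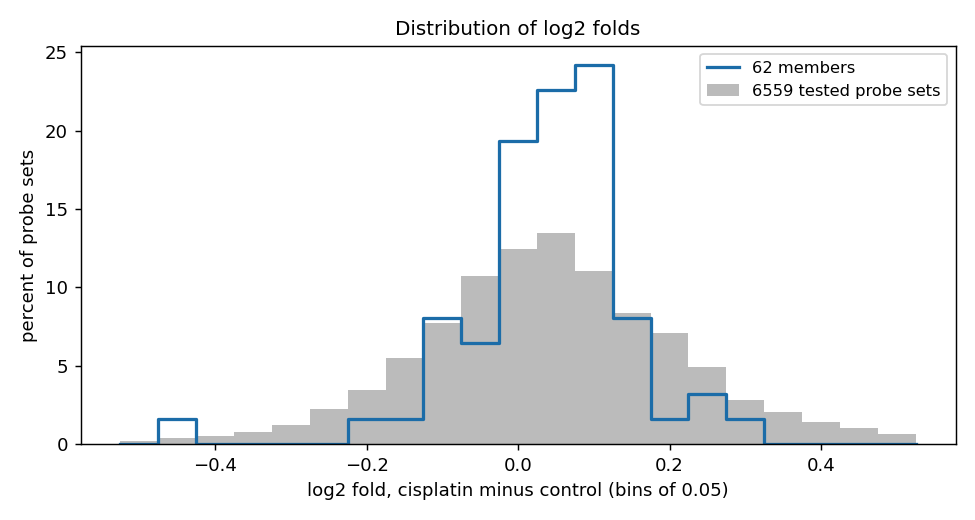
Share of probe sets, in percent, in each bin of log2 fold (bin width 0.05), as a line for the 62 members and as bars for all 6559 tested probe sets; 1.91% of the latter lie outside the axis. The members centre near the same value as all probe sets (median 0.06 against 0.04) and spread less, without matching for intensity.

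Array by array, the members moved little. Their median log2 difference from the control mean was -0.01, 0.03 and 0.004 on the controls, in numbered order, followed by 0.06, 0.04 and 0.08 with cisplatin. For all tested probe sets the same medians were -0.03, 0.05 and 0.008 on the controls and 0.04, 0.05 and 0.02 on the cisplatin arrays. Of 372 member values, 370 lay within 1.5-fold of the gene's control mean. Both exceptions came from dim probe sets, ATP5F1C on cisplatin 2 and COX7A1 on cisplatin 3. The like share over all tested probe sets was not computed, so this closeness is not shown to be particular to the members. Cisplatin 2, one of the arrays that stood apart on the first principal component of all tested probe sets together with control 1, was the lowest cisplatin array for 28 of 62 members (45.2%, against 37.9% of all tested probe sets).

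**Figure D3:**
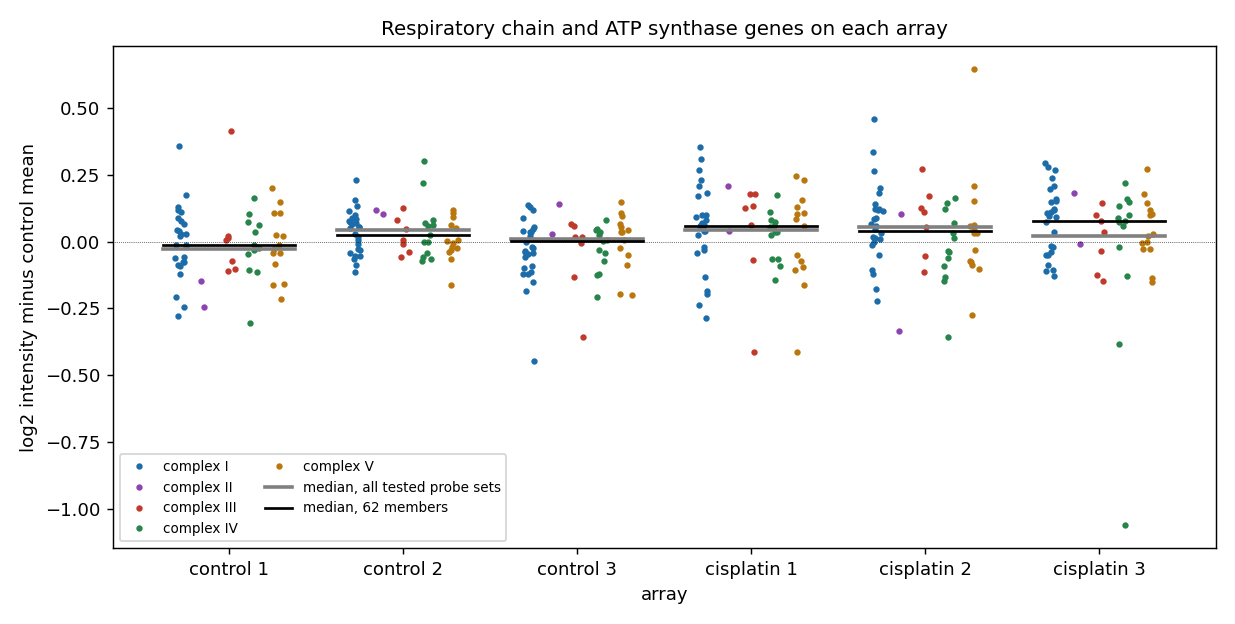
Log2 intensity of each member minus its control mean (vertical axis) on each of the 6 arrays (horizontal axis), coloured by complex; lines mark the median of the 62 members (black) and of all tested probe sets (grey). The member medians range from -0.01 to 0.08, and the lowest point is COX7A1 on cisplatin 3, at -1.06.

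Complex I, NADH dehydrogenase, is the largest complex of the chain. Its electron-carrying core was represented by NDUFV1, which binds NADH and flavin, and by NDUFV2 and NDUFS1, which hold iron-sulphur clusters. With arrays in numbered order here and below, NDUFV1 intensities were 454, 505 and 424 in control and 400, 555 and 426 after cisplatin. The groups overlapped, and the log2 fold was -0.01 (95% interval -0.33 to 0.30). NDUFS1 had 306, 343 and 310 in control and 377, 281 and 357 after cisplatin, again with overlap, and a log2 fold of 0.07 (-0.24 to 0.37). NDUFV2, brighter, was bounded more closely, with 1067 ± 49.8 and 1053 ± 10.8 and a log2 fold of -0.02 (-0.20 to 0.16). NDUFS3, a core subunit of the arm that reduces ubiquinone, had a log2 fold of 0.01 (-0.24 to 0.25).

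The supernumerary subunits of complex I surround that core. NDUFA7 had the highest log2 fold of all members, with 114, 116 and 96.4 in control and 124, 153 and 130 after cisplatin. All its cisplatin values exceeded its controls, by little on cisplatin 1, and the log2 fold was 0.29 (SE 0.14, interval -0.02 to 0.61, limma adjusted p = 0.982). Over the alternative settings its log2 fold stayed between 0.21 and 0.36, and the lowest adjusted p, with the ACTB 3′/5′ ratio as a covariate, was 0.308.

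NDUFB1 and NDUFB6, subunits of the membrane arm, followed. NDUFB1 was 824, 1062 and 1071 in control and 1216, 1067 and 1203 after cisplatin, so cisplatin 2 fell between the controls. Its log2 fold was 0.24 (SE 0.12, adjusted p = 0.982), and without control 1, whose ACTB ratio was the lowest, it was 0.12. Leaving out any other single array gave 0.21 to 0.31. With the ACTB ratio as a covariate the log2 fold was 0.12. NDUFB6 was 322, 441 and 368 against 482, 407 and 457, overlapping, with a log2 fold of 0.25 (SE 0.14). It was 0.15 without control 1, 0.20 to 0.37 without any other single array, and 0.13 with the ACTB ratio as a covariate.

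Of the 9 NDUFB genes, a grouping not set in advance, 8 had a log2 fold above 0 and 0 passed. As deposited, 60.5% of all tested probe sets and 71.0% of the members were above 0. NDUFB4, the exception in sign, was 1670 ± 126 in control and 1666 ± 67.8 after cisplatin, a log2 fold of -0.002 with an interval of -0.18 to 0.18. NDUFAB1, the mitochondrial acyl carrier protein that complex I also holds, went from 1550 ± 86.1 to 1674 ± 99.4 (log2 0.11, interval -0.07 to 0.29). Its values of 1485, 1517 and 1648 in control and 1744, 1560 and 1718 after cisplatin overlapped. The lowest fold in complex I was that of NDUFA9, at -0.10 (-0.38 to 0.18).

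Complex II, succinate dehydrogenase, also belongs to the citric acid cycle, and SDHC and SDHD are its membrane anchors. SDHC was 335, 405 and 380 in control and 433, 401 and 424 after cisplatin, and SDHD 345, 442 and 454 and then 423, 324 and 408. Both overlapped between groups, with log2 folds of 0.17 (-0.09 to 0.42) and -0.10 (-0.43 to 0.23). In both genes control 1 was the lowest control and cisplatin 2 the lowest cisplatin array. The sign of SDHD turned to a log2 fold of 0.02 without cisplatin 2, while leaving out any other single array gave -0.22 to -0.03.

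Complex III, the cytochrome bc1 complex, was represented by its core proteins, by cytochrome c1 and by small subunits. CYC1, the cytochrome c1 gene, was 1187, 1293 and 1078 in control and 1126, 1093 and 1155 after cisplatin, which overlap (log2 -0.07, interval -0.27 to 0.13). UQCRC1, a core protein gene, was the least reproducible of the bright members, with 948, 681 and 551 in control and 530, 736 and 648 after cisplatin. Control 1 lay far above the other controls, the log2 fold was -0.16 (-0.59 to 0.27), and without control 1 it was 0.04. Leaving out any other single array gave -0.34 to -0.04. With the ACTB ratio as a covariate the log2 fold was 0.08. UQCRC2, the other core protein gene, was 967 ± 63.1 and 989 ± 103, with a log2 fold of 0.03 (-0.20 to 0.26).

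Of the small subunits of complex III, UQCRQ and UQCR11 had narrower intervals than the core protein genes UQCRC1 and UQCRC2. UQCRQ, which encodes a small membrane subunit, was 2003, 1972 and 1981 in control and 2071, 2239 and 2130 after cisplatin. UQCR11 was 655, 693 and 724 against 758, 755 and 764. In both genes the groups did not overlap, but log2 folds of 0.11 (interval -0.04 to 0.26) and 0.13 (-0.07 to 0.33) did not pass in limma. UQCRB, which encodes the ubiquinone-binding protein and has a dim probe set, was 71.6 ± 1.92 and 82.7 ± 6.42 (log2 0.18, -0.13 to 0.48).

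The nuclear subunits of cytochrome c oxidase surround a catalytic core encoded by mitochondrial DNA. COX4I1, the largest of them and a regulatory site for adenine nucleotides, was 2249, 2137 and 2031 in control and 2192, 2365 and 2249 after cisplatin. Its groups overlapped, with a log2 fold of 0.08 (-0.07 to 0.24). COX6C, another small membrane subunit gene, was 2167 ± 70.6 and 2205 ± 62.5, and its interval reached no further than 1.13-fold higher or 1.09-fold lower. COX5A and COX5B had log2 folds of 0.06 and 0.09, COX7B 0.07, COX8A 0.01 and COX7C -0.09. COX5B went from 819, 853 and 842 to 906, 880 and 885, without overlap, but its log2 interval was -0.10 to 0.27. COX7A2 went from 1338, 1417 and 1330 to 1440, 1483 and 1589, also without overlap, and its log2 fold of 0.14 (SE 0.08) did not pass.

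Some oxidase subunits exist in a general and a heart and skeletal muscle form. On this array COX6A1 and COX7A2 measure the general forms and COX6A2 and COX7A1 the muscle forms. COX6A1 was 2994 ± 203 in control and 3014 ± 291 after cisplatin (log2 0.01, -0.18 to 0.20). COX6A2 was 53.5, 65.1 and 45.4 in control and 51.3, 48.4 and 38.8 after cisplatin, with overlap (log2 -0.19, -0.59 to 0.20). COX7A1 was 34.4, 58.4 and 45.3 and then 47.3, 32.8 and 15.5, the last near the offset of 11.8 added before the logarithm. Its log2 fold of -0.46 was the lowest of any member but had an interval of -1.09 to 0.18, and it ranged from -0.71 to -0.15 over the alternatives, being -0.15 without cisplatin 3. The muscle markers CKM, MB and ACTA1 had mean intensities of 92.2, 48.5 and 33.9, and these 3 summed to 136 to 184 on control and 169 to 200 on cisplatin arrays. MYL2 was below the filter. In limma 0 of the 3 passed and 1 had an unadjusted p under 0.05, against 5.03% of all tested probe sets. That gene, MB, was higher on all 3 cisplatin arrays (39.2 ± 5.51 and 57.9 ± 11.9, log2 0.44, adjusted p = 0.882). CKM had a log2 fold of 0.20 and ACTA1 -0.33, and their part in the values of COX6A2 and COX7A1 was not tested. Brightness is a property of the probe set as well as of the gene's level: ATP5F1C, UQCRB and NDUFB7, which encode obligatory subunits, were below 100 as well. COX7A2L, a related protein that joins complexes III and IV into supercomplexes, was 1222 ± 128 and 1209 ± 75.3 (log2 -0.01, -0.23 to 0.21).

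ATP synthase joins a catalytic F1 head to a rotating ring in the membrane. ATP5F1A and ATP5F1B encode the alpha and beta subunits of the head. ATP5F1B, the brightest probe set of all members, was 3628, 3314 and 3167 in control and 3198, 3518 and 3351 after cisplatin. Its log2 fold was -0.005, and its interval reached no further than 1.12-fold lower or 1.11-fold higher, the closest bound of any member. ATP5F1A was 1945 ± 110 and 1950 ± 65.1 (log2 0.005, interval -0.16 to 0.17). ATP5F1E, the epsilon subunit gene, went from 1857, 1919 and 1957 to 2054, 1993 and 2054, without overlap, at a log2 fold of 0.09 (-0.06 to 0.23) that did not pass. ATP5PO, which encodes the oligomycin sensitivity protein of the stalk, had 0.07, and ATP5MJ, a small proteolipid gene, 0.10. ATP5IF1 encodes the inhibitor that stops ATP hydrolysis when the proton gradient falls. It was 273, 320 and 328 against 361, 313 and 274, which overlap, with cisplatin 1 above all controls (log2 0.04, -0.27 to 0.34).

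The c subunit, which forms the proton-driven ring, is encoded by ATP5MC1, ATP5MC2 and ATP5MC3, genes that give the same mature protein with different import sequences. ATP5MC3 was 1943, 1869 and 1917 in control and 1989, 2126 and 2164 after cisplatin, all higher than the controls (log2 0.13, interval -0.02 to 0.28). ATP5MC2 was 1632, 1608 and 1580 and then 1490, 1496 and 1575, all lower (log2 -0.08, -0.24 to 0.08). ATP5MC1 was 1395, 1302 and 1092 and then 1176, 1191 and 1282, overlapping (log2 -0.05, -0.28 to 0.18). None of the 3 passed. The log2 difference ATP5MC3 minus ATP5MC2, set to a mean of 0 in the controls and singled out after the values were seen, was 0.003, -0.03 and 0.03 in control and 0.17, 0.26 and 0.21 after cisplatin. A factor common to a whole array hardly touches this ratio, but quantile normalization changed it, with log2 folds of 0.11 for ATP5MC3 and -0.06 for ATP5MC2. The ratio is a description with no test, since both genes were picked because their groups did not overlap.

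**Figure D4:**
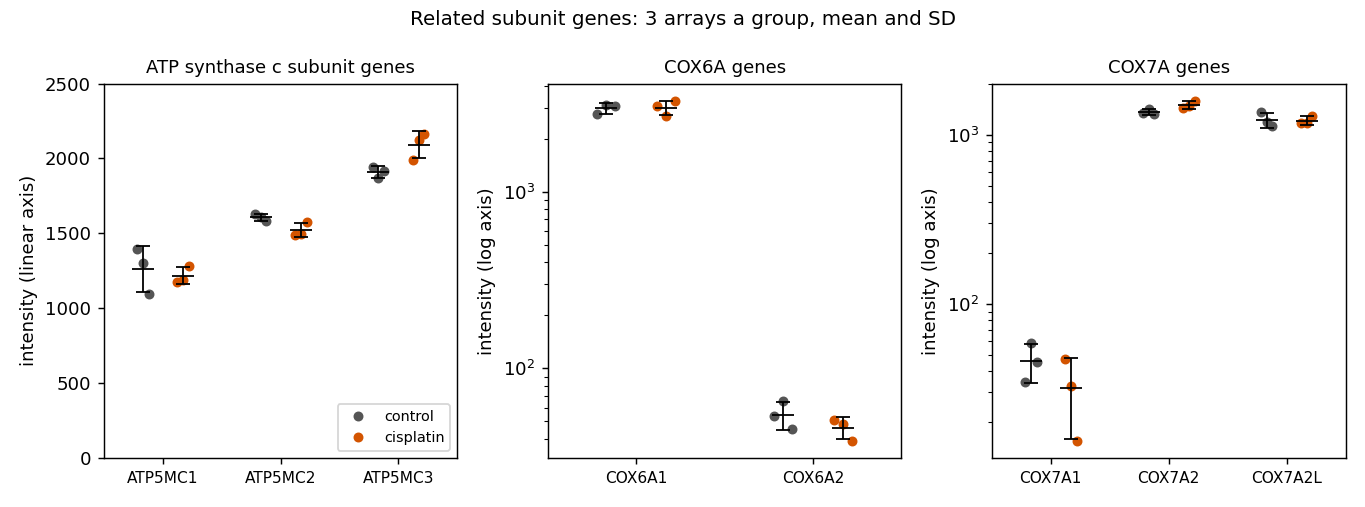
Intensities of related subunit genes on the 3 control (grey) and 3 cisplatin (orange) arrays, with mean and SD; the left panel has a linear axis from 0 and the others a log axis. ATP5MC3 lies higher and ATP5MC2 lower on all 3 cisplatin arrays, and COX6A2 and COX7A1 stay under 100 on every array.

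Other genes that serve the chain were read from lists on the same arrays. Of the assembly factors, which build the complexes, 10 of 50 listed genes were tested and 0 passed, with a median log2 fold of 0.05. SCO2, a copper chaperone for cytochrome c oxidase, was 134 ± 16.0 and 118 ± 10.6 (log2 -0.17), and COX20 had 0.22. Of the electron carriers 0 of 14 tested genes passed and 1 had an unadjusted p under 0.05 in limma. That gene was FDX1, a ferredoxin, with 94.7 ± 10.3 and 130 ± 2.96 (log2 0.42, SE 0.13, adjusted p = 0.640), and PDSS2, of ubiquinone synthesis, had -0.33. Among regulators of mitochondrial gene expression 0 of 13 tested genes passed and 0 had an unadjusted p under 0.05. POLG, the mitochondrial DNA polymerase gene, had a log2 fold of 0.22 and POLRMT, the mitochondrial RNA polymerase gene, -0.17. In the citric acid cycle and pyruvate dehydrogenase list 0 of 18 passed and 2 had an unadjusted p under 0.05 in limma. These were IDH2 at 0.30 and the pyruvate carrier gene MPC1 at 0.29. Over all tested probe sets 0.29% passed and 5.03% had an unadjusted p under 0.05, the shares to set beside each of these lists.

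Promoter sequence is a further property that the choice of members did not use. Factors known to drive nuclear respiratory genes are NRF1, the ETS factor GABP and YY1. RefSeq promoter windows of GRCh38.p14, from 250 bases before to 50 after a start, were matched for 53 of the 62 members and gave 66 windows. ATP5F1B, ATP5F1D, ATP5MC3, COX6C, COX7A1, CYC1, NDUFB5, SDHC and UQCRB were not matched. Exact matches on both strands were counted for the NRF1 core, which is the 10 capital letters shared by the first 4 sequences and reads the same on both strands, the ETS core CCGGAAG and the YY1 core AAGATGGCG. The stretches below are shown because they hold the NRF1 core, ETS cores on both strands or a YY1 core beside an ETS core. Each is written along the gene, with the matched letters in capitals.

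SDHD, chr11:112086723-112086842, plus strand: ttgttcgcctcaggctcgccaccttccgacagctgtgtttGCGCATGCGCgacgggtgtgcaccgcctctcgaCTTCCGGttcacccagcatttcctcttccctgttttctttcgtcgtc
NDUFB4, chr3:120596137-120596226, plus strand: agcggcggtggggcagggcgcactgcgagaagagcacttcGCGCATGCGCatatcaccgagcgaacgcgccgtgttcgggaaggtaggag
ATP5F1C, chr10:7788115-7788196, plus strand: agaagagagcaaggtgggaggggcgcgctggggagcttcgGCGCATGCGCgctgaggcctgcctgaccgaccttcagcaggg
NDUFA8, chr9:122159760-122159823, minus strand: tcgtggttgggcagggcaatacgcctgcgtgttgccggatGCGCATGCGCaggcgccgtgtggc
NDUFS3, chr11:47578932-47579037, plus strand: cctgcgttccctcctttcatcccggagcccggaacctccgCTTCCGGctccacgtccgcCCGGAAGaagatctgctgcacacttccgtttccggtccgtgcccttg
UQCR11, chr19:1605513-1605619, minus strand: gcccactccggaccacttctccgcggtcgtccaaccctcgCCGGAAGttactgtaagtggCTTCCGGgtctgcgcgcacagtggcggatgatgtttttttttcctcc
ATP5PF, chr21:25735038-25735151, minus strand: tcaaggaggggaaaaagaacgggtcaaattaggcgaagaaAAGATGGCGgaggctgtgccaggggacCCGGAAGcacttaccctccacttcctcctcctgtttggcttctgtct

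The NRF1 core lay in 4 of the 66 member windows (6.06%), those of SDHD, NDUFB4, ATP5F1C and NDUFA8, against 1.24% of all 35116 windows and 1.43% of the windows of genes tested here. The ETS core lay in 17 member windows (25.8%) of 16 genes, against 10.3% and 13.8%. In SDHD it stands downstream of the NRF1 core, and in NDUFS3 and UQCR11 it occurs on both strands. COX5B and 1 window of ATP5PF, not shown, hold 2 ETS cores on the same strand. The YY1 core lay in 8 member windows (12.1%) of 7 genes, against 1.75% and 3.01%. In NDUFA6, NDUFA7, NDUFA9, NDUFB8, NDUFS4 and UQCRC1 it began 11 to 26 bases after the start. Only in ATP5PF, the YY1 stretch shown, did it lie before the start. Windows of 1 gene can overlap, as those of ATP5PF do. In the cisplatin comparison the median log2 fold was 0.0585 for the 25 genes with any of the 3 cores and 0.0572 for the 28 without. A match is a string in the sequence and says nothing on whether a factor binds there.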

How the data were processed

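Total RNA of 3 control and 3 cisplatin cultures was hybridised as biotin-labelled target, per the labels' protocols. The deposited values are probe set intensities made by the authors. Of them 1.37% are at or below 0, so a subtraction had been made, of a kind that the values do not show. For the summary software and any scaling between arrays, neither labels nor headers name a method. Values at or below 0 were set to 0, the offset 11.8 (the 10th percentile of positive values) was added, and log2 was taken. Arrays were used as deposited, since their 75th percentiles spanned 0.15 on that scale. Control probe sets (47) were left out, and of 8746 others those under the 25th percentile of mean log2 were dropped, which left 6559 to test with limma 3.58.1 in R 4.3.3 (eBayes with intensity trend, two-sided, Benjamini-Hochberg, threshold 0.05). The offset shrinks log2 folds of dim probe sets. Means and SD are of intensities. The fit was also run on simulated data with residual SDs shuffled over probe sets, which drops the tie of variance to intensity. No statement here on missed changes rests on that run. Gene names came from the platform's probe table, with 7840 probe sets of 1 symbol, 388 of several and 518 of none. Entrez identifiers of 7838 matched RefSeq of GRCh38.p14, members' among them. Genes of the other lists are represented by their brightest tested probe set.

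The members, lists and tests were chosen with earlier results of these data known. Named were all members past the threshold, in each complex the 3 genes with the lowest and the 1 with the highest unadjusted p, and a fixed list of core subunits and isoforms; of other lists the 2 with the lowest p. NDUFV2, NDUFS3, NDUFA8, NDUFA9, NDUFB5, NDUFB7, ATP5PF, ATP5F1C and ATP5F1D were added after their values were seen. An exact test of 3 against 3 arrays cannot go below 0.1 and was not used. The labels do not say that equal replicate numbers share an experiment. Alternatives covered scaling, offset, filter, variance prior, the replicate block, left-out arrays and the ACTB 3′/5′ ratio as a covariate. Figures were drawn with matplotlib 3.10.9.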

Additional observations from a re-analysis of the deposited data

How the results depend on the processing

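No member was called in limma under any of the 17 alternative settings, with 0 to 4 of the members at an unadjusted p under 0.05. These 4, under the 3′/5′ covariate, were NDUFA7 (log2 0.36), COX7A1 (-0.69), SDHD (-0.25) and ATP5MC3 (0.16), and the lowest adjusted p of a named member was 0.308. The median log2 fold of the members lay between -0.002 and 0.07. Of 36 named members, 22 kept the sign of their log2 fold under every alternative that tested them, and 14 changed it under at least 1, in 64 of 610 values. With arrays centred on their medians the median of complex I was 0.0108, and those of complexes II to V changed sign, to -0.0268, -0.006, -0.0347 and -0.0174. Under 75th percentile scaling complexes II, IV and V changed sign, to -0.0124, -0.0215 and -0.0033. Over all tested probe sets 8 passed without the intensity trend and 47 with the 3′/5′ covariate, against 19. The cause was not tested. Leaving out 1 array at a time gave 6 to 18, in fits with fewer arrays: 6 when control 2 or cisplatin 1 was dropped, 7 for cisplatin 3, 8 for control 3, 11 for cisplatin 2 and 18 for control 1. With the replicate number as a block (replicate block) 5 passed and 0 members. Deviations of arrays with equal numbers correlated at -0.56, -0.31 and -0.12. Control 1 and cisplatin 2, which have unequal numbers, shared low scores on the first principal component (-14.4 and -17.1), which can affect these correlations. Whether equal numbers share an experiment is therefore not settled by them. Without control 1 and cisplatin 2 together 20 passed and 0 members. Signal over background limits the 5 members under an intensity of 100, among which COX7A1 was at -0.62 for an offset of 1 and -0.24 for 50. Each member has 1 probe set, so averaging probe sets of a gene changes none of their values.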
